A study of Mus musculus with 4 samples.

Results

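The tissue inhibitors of metalloproteinases (Timp1, Timp2, Timp3 and Timp4) and the matrix metalloproteinases Mmp2, Mmp3, Mmp11, Mmp14, Mmp19 and Mmp23 were followed in single-cell RNA sequencing of mouse adipose tissue (AT). These 10 genes were chosen by symbol with their levels in these data already known, including the difference between genotypes in stromal cells, so the values given for that difference are a description and were not tested. Each of the 10 symbols matched 1 feature. By GENCODE M21 on GRCm38, Timp1 (ENSMUSG00000001131) lies at chrX:20870166-20874735, Mmp3 (ENSMUSG00000043613) at chr9:7445822-7455975 and Mmp19 (ENSMUSG00000025355) at chr10:128790910-128800824, all on the plus strand, and all 10 genes are protein coding. The 10 genes held 79889 UMIs (unique molecular identifiers, a count of captured RNA molecules) in 4136 cells.

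The study asked how loss of telomerase reverse transcriptase (Tert) in endothelial cells (EC) changes the other cells of fat. Male mice of 7 months, after 5 months on a high-fat diet (HFD), were either Tie2e-cre; TERT+/+; mTmG (WT) or Tie2e-cre; TERTfl/fl; mTmG (KO). Both genotypes thus carried the Cre recombinase, driven by regulatory sequence of Tie2, a gene of EC, and the mTmG reporter, and only the floxed Tert alleles set them apart. Each genotype gave 1 library of subcutaneous fat (SC) and 1 of visceral, intraperitoneal fat (IP), 4 in all. How many mice were pooled for each library is not given in the sources used here, and the labels name both cells and nuclei as the material loaded. The stromal cells compared here are not the cell type in which the Tie2 sequence is meant to act. Tert itself gave 3 UMIs in WT and 2 in KO cells of SC, and 8 and 9 in those of IP, none of them in the 25 cells with EC markers, so the deletion could not be checked at this depth.

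The extracellular matrix of fat is a mesh of collagens, laminins and fibronectin, laid down mostly by stromal cells and reshaped as adipocytes enlarge. Matrix metalloproteinases are zinc enzymes that cut these proteins, some secreted as inactive precursors and some anchored in the cell membrane. TIMPs bind their active site and block it, and Timp2 also takes part, together with Mmp14, in switching on the Mmp2 precursor. Transcript counts measure neither the proteins nor their activity.

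Cells were sorted into classes by their marker genes. A cell with UMIs from at least 0.4 of a class's markers, and from no other class at more than 0.5 of that share, took the name of that class with "-like" added. Stromal-like cells were set by Pdgfra, Dcn, Lum, Dpt, Clec3b and Serpinf1, none of which is among the 10 genes. They numbered 100 for WT and 184 for KO in SC, 270 for WT and 203 for KO in IP, and held 85.9% of the UMIs of the 10 genes. All 6 markers were found in every library, at a summed level of 15760 to 20185 counts scaled to 1000000 UMIs (CPM) in the stromal-like cells. Of the 6 mesothelial markers, 2 or 3 had a UMI in the stromal-like cells of a library, at 0.662 to 20.6 CPM summed, with Msln, Lrrn4 and Krt8 at 0 in every library. Of the 6 EC markers, 3 or 4 had a UMI, at 6.83 to 49.0 CPM summed, with Tie1 and Cldn5 at 0 in every library. Macrophage markers summed to 39.7 to 72.9 CPM there. The part of these cell types in the values below was not tested, except where a value without them is given.

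The KO SC and WT IP libraries shared 93 cell barcodes, and all 93 passed the filters in both. No other pair of libraries shared more than 1, and none of those passed. The shared barcodes had a median of 601 UMIs in KO SC and 35392 UMIs in WT IP, a median of 1.71% of the depth. Over 5653 genes, 92 of the 93 profiles in KO SC correlated best with the profile of the same barcode in WT IP. In KO SC, 62 of the 184 stromal-like cells were such barcodes, and 60 of these 62 were also stromal-like in WT IP. They held 2.31% of all stromal UMIs of KO SC and 85 of its 124 Timp1 UMIs, which is 68.5%. In these 62 barcodes Timp1 stood at 2146 CPM in KO SC and 1593 CPM in WT IP, against 23.3 CPM in the other stromal-like cells of KO SC. How the barcodes came to be in both libraries was not tested. Levels and ratios of the 10 genes in stromal-like cells of KO SC are therefore given with all barcodes and again without the shared ones, which leaves 122 stromal-like cells and raises their median depth from 7062 to 14661 UMIs. Stromal-like cells of the other 3 libraries had a median of 20180 (WT SC), 23383 (WT IP) and 21987 (KO IP) UMIs.

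Because AP-1 (Fos and Jun family) motifs lie in promoters of several matrix metalloproteinase genes, the promoters of the 10 genes were searched for an AP-1 motif (TGANTCA) and for a GC box (GGGCGG), each on both strands. RefSeq sequence on GRCm38.p6, from 250 bases before to 50 bases after the start of the gene, was at hand for 8 of the 10, and Mmp2 and Mmp19 were not among them. The AP-1 letters stood in 1 of the 8 (Mmp3) and in 7.81% of all 32851 promoters. The GC box stood in 6 of the 8 and in 35.7% of all promoters. The promoters of Timp1, at chrX:20869916-20870215 on the plus strand, and of Mmp3, at chr9:7445572-7445871 on the plus strand, are printed because each holds 1 of the motifs and because Timp1 and Mmp3 were the inhibitor and the enzyme whose RNA was held most by few cells. Capitals mark the GC box, read on the opposite strand, in Timp1 and the AP-1 motif in Mmp3. A match is a run of letters and not a shown binding site. Runs with 1 letter changed, such as tgagtaa in the printed Timp1 promoter, were not counted. The lack of a match thus does not show the lack of a site.

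Timp1 promoter: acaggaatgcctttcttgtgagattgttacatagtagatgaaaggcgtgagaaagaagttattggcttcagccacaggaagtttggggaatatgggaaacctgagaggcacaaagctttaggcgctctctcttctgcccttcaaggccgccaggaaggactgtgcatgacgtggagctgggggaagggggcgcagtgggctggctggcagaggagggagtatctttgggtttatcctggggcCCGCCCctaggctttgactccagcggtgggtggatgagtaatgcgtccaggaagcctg
Mmp3 promoter: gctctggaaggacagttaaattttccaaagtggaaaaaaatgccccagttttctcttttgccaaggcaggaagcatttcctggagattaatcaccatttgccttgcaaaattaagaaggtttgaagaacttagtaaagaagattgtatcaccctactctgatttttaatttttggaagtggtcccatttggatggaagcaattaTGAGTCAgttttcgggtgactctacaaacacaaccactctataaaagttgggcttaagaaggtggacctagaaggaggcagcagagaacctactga

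Most of the RNA of this family lay in stromal-like cells. Timp1, a secreted inhibitor with activity against most matrix metalloproteinases, gave 148 CPM (130 to 167; here and below, 95% exact intervals of the UMI count) in the stromal-like cells of WT SC against 72.3 CPM in KO SC, and 1173 CPM in WT IP against 364 CPM in KO IP. Without the shared barcodes it stood at 23.3 CPM (16.6 to 31.8) in KO SC. In the T cell-like cells, the largest class with 1861 cells, Timp1 had 1 UMI in KO SC and 0 in the other 3 libraries, and it had 0 in all B cell-like cells of every library. The stromal levels of all 4 libraries thus stood far above those in lymphocytes, where free RNA would also show. These intervals of the UMI count cover counting error only. They hold neither the spread between cells of a library nor that between libraries, of which there was 1 per group.

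Timp2 was the family member found most widely. Stromal-like cells of SC held 2478 CPM (WT) and 2576 CPM (KO) and those of IP 1979 CPM (WT) and 1869 CPM (KO), with 2610 CPM in KO SC without the shared barcodes. Outside the stroma it reached 168 CPM (145 to 194) in macrophage-like cells of WT IP and 544 CPM (456 to 644) in those of KO IP. The share of these cells with a Timp2 UMI had the opposite order, 42 of 69 (60.9%) in WT IP and 9 of 21 (42.9%) in KO IP, so the KO level rested on 9 cells. T cell-like cells held 45.5 CPM in WT SC and 45.9 CPM in KO SC (45.5 CPM without the shared barcodes), against 0.527 and 1.24 CPM in B cell-like cells of the same libraries. Of T cell-like cells, 28.2% (24.1 to 32.6) had a Timp2 UMI in WT SC, and of B cell-like cells 0.328%, at median depths of 9165 and 5952 UMIs. With every cell thinned to 2000 UMIs the T cell share was 7.78%.

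Timp3, the inhibitor that stays bound to the matrix, gave 811 and 800 CPM in the SC stromal-like cells of WT and KO and 193 and 229 CPM in those of IP, with 815 CPM in KO SC without the shared barcodes. Its highest levels lay outside the stroma, in endothelial-like and mesothelial-like cells, while mural-like cells lay below the stromal-like cells of SC. The 25 endothelial-like cells of all libraries, summed, held 2237 CPM (2096 to 2386), or 2238 CPM without the shared barcodes, the 20 mesothelial-like cells of KO IP 1291 CPM and the 17 mural-like cells of all libraries 740 CPM. Timp3 stayed under 10 CPM in every leukocyte class with at least 20 cells.

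Timp4 had 2 UMIs in stromal-like cells of WT IP and 0 UMIs in those of WT SC, of KO SC and of KO IP. A count of 0 allows up to 1.67, 1.75 and 0.683 CPM in these 3. Its UMIs lay in mural-like cells, with 53 UMIs in 10 of 17 cells (154 CPM, 115 to 201), and in endothelial-like cells, with 15 UMIs in 3 of 25. No comparison of Timp4 between genotypes was possible in stromal-like cells.

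The enzymes lay mainly in stromal-like cells. Mmp2, a secreted gelatinase, gave 704 CPM (WT) and 540 CPM (KO) for SC and 685 CPM (WT) and 750 CPM (KO) for IP, and Mmp14, the membrane-anchored collagenase, 423, 346, 663 and 549 CPM. Mmp3 (stromelysin-1) gave 275, 158, 176 and 166 CPM in the same order, Mmp11 (stromelysin-3) 21.1, 22.2, 126 and 89.9 CPM, Mmp19 62.8, 18.1, 99.0 and 92.8 CPM, and the membrane-bound Mmp23 179, 149, 253 and 236 CPM. Without the shared barcodes the KO SC levels were 545 CPM for Mmp2, 337 CPM for Mmp14, 158 CPM for Mmp3, 19.1 CPM for Mmp11, 16.7 CPM for Mmp19 and 149 CPM for Mmp23.

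One enzyme was found in a leukocyte class at a level near that in stroma. Mmp19 gave 85.7 CPM (69.4 to 105) in macrophage-like cells of WT IP and 73.1 CPM (43.3 to 115) in those of KO IP, intervals that overlap those of the stromal-like cells of the same libraries. The mesothelial-like cells of KO IP, a layer that lines visceral fat, held Timp1 at 1157 CPM (1090 to 1227), 3.18-fold its level in the stromal-like cells of that library, with Mmp14 at 107 CPM, Mmp2 at 2 UMIs and Mmp3 at 0 UMIs. WT IP had 1 such cell, so mesothelial-like cells could not be compared between genotypes.

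**Figure D1:**
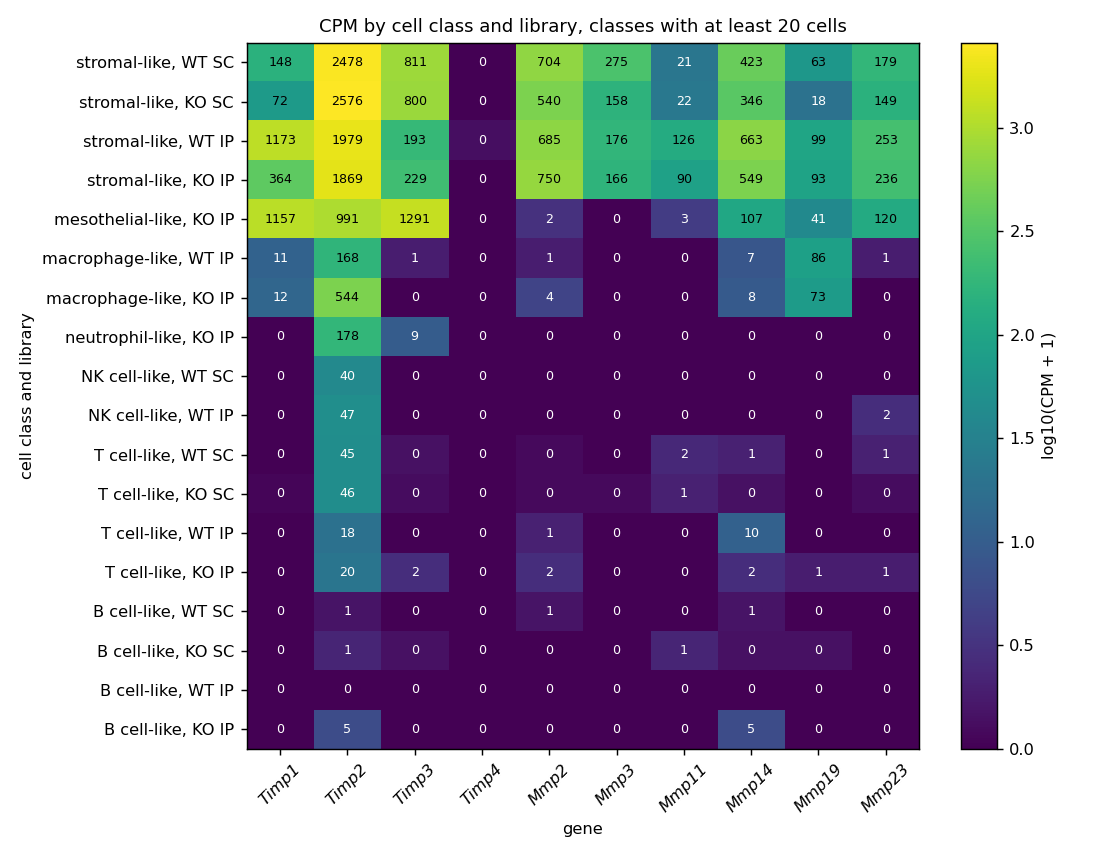
CPM of the 10 genes (columns) in each cell class and library with at least 20 cells (rows), with all barcodes; the colour is log10(CPM + 1) and the number is the CPM. The 4 stromal rows are filled for every gene but Timp4, the mesothelial row of KO IP holds Timp1, Timp2, Timp3, Mmp14, Mmp19 and Mmp23, and the T, B and NK rows are near 0 for every gene but Timp2.

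The share of stromal-like cells with a UMI separated genes found in nearly every cell from genes found in a few. Timp2 had a UMI in 94.0% (WT SC), 96.7% (WT IP) and 95.6% (KO IP) of cells, and in 81.5% of KO SC cells, or 97.5% without the shared barcodes. Timp1 had one in 34.0% (24.8 to 44.2) of WT SC and 26.1% of KO SC cells, or 15.6% (9.64 to 23.2) without the shared barcodes, and in 85.6% (80.8 to 89.5) of WT IP and 60.6% (53.5 to 67.4) of KO IP cells. After thinning each cell to 2000 UMIs, the Timp1 shares were 14.8% of 88 WT and 2.61% of 115 KO cells in SC, and 48.8% of 248 WT and 23.2% of 185 KO cells in IP. All shared stromal-like barcodes of KO SC lay below 2000 UMIs and were already left out by thinning. A second random draw on the same 115 KO SC cells gave 1.74%. The order of the libraries was the same on both scales. Mmp3 had a UMI in 33.0% of WT and 16.3% of KO cells in SC, the latter 21.3% without the shared barcodes, and in 32.2% of WT and 25.1% of KO cells in IP. Mmp23 had one in 76.0% of WT and 56.0% of KO cells in SC, the latter 78.7% without the shared barcodes, and in 88.1% of WT and 80.8% of KO cells in IP.

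Much of the Timp1 and Mmp3 RNA was held by few cells, more so in SC than in IP for Mmp3. In WT SC, 194 of the 266 Timp1 UMIs lay in 4 of the 100 stromal-like cells, with 85 in 1 cell, and the median cell had 0. In KO IP, 478 of the 1599 Timp1 UMIs lay in 1 of the 203 cells and 791 in 4, with a median of 1 UMI per cell, while in WT IP 1439 of the 7083 lay in 4 of the 270 cells, with a median of 6. Each of the 4 highest cells of WT SC, WT IP and KO IP had all 6 stromal markers and no mesothelial marker. Several of them also had a UMI of a macrophage or EC marker. The KO IP cell with 478 Timp1 UMIs had 1 EC marker and 2 macrophage markers. For Mmp3, 4 cells held 278 of 495 UMIs in WT SC and 158 of 270 in KO SC (158 of 264 without the shared barcodes), and 268 of 1061 in WT IP and 310 of 729 in KO IP. For Timp2 and Mmp23, in contrast, 4 cells held at most 15.2% of the UMIs in any library.

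**Figure D2:**
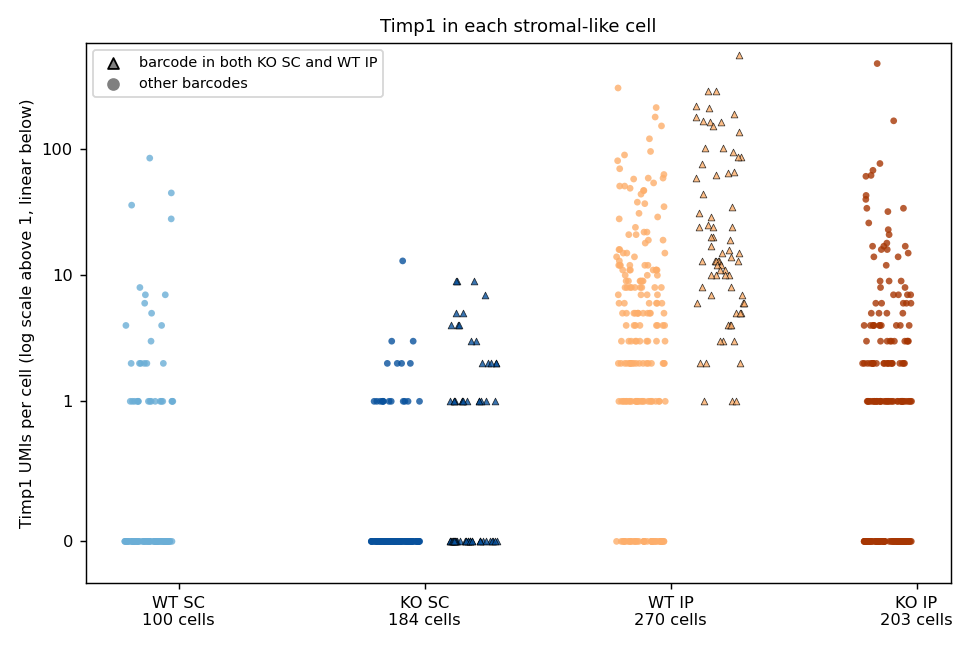
Timp1 UMIs (vertical axis, log scale above 1) in each stromal-like cell of the 4 libraries (horizontal axis), with triangles for the barcodes found in both KO SC and WT IP. WT SC shows 4 cells from 28 to 85 UMIs above the rest, KO SC stays at or below 13, and WT IP fills the range up to 555.

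The genotypes were compared first in SC. With all barcodes, Timp1 gave 266 UMIs in WT and 124 in KO stromal-like cells, a log2 ratio (KO over WT, of CPM with 0.5 UMI added) of -1.03 (-1.35 to -0.72). Without the shared barcodes KO had 39 UMIs and the log2 ratio was -2.65 (-3.19 to -2.18), a 6.28-fold lower level. The size of the Timp1 difference in SC thus turned on 62 barcodes of low depth. Leaving out of each library the 4 cells with the most Timp1 UMIs gave 0.22 with all barcodes and -1.89 without the shared ones, so that with all barcodes the sign turned when these cells were left out.

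Mmp19 gave 113 UMIs in WT SC and 31 in KO SC, a log2 ratio of -1.78 (-2.42 to -1.21), and -1.89 (-2.56 to -1.30) with 28 UMIs without the shared barcodes. The 4 cells with the most Mmp19 held 59 of the 113 UMIs in WT SC and 12 of the 31 in KO SC (12 of 28 without the shared barcodes). Mmp3 gave 495 and 270 UMIs, at -0.80 (-1.02 to -0.59) with all barcodes and -0.80 without the shared ones. Mmp2 stood at -0.38 (-0.51 to -0.26), Mmp14 at -0.29 (-0.45 to -0.13) and Mmp23 at -0.26 (-0.51 to -0.02). All 5 of these enzymes were lower in KO than in WT beyond counting error, and without the shared barcodes Mmp2 stood at -0.37, Mmp14 at -0.32 and Mmp23 at -0.27. With all barcodes and each cell weighted equally, Mmp14 turned to 0.12 and Mmp19 was at -0.95, less than 2-fold lower. Mmp14 also turned to 0.15 with cells thinned to 2000 UMIs. Thinning left out every cell below that depth, all shared stromal-like barcodes of KO SC among them. The other 2 inhibitors that could be compared were close to level, with Timp2 at 0.06 (-0.00 to 0.12) and Timp3 at -0.02 (-0.13 to 0.09), and 0.07 (0.01 to 0.14) and 0.01 without the shared barcodes. Mmp11, on 38 UMIs in each library, gave 0.07 (-0.62 to 0.76), and -0.14 (-0.87 to 0.57) without the shared barcodes, which allows a difference in either direction.

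In IP stromal-like cells, Timp1 gave 7083 UMIs in WT and 1599 in KO, a log2 ratio of -1.69 (-1.77 to -1.61), or 3.22-fold lower. It ranked 76 from the lowest among 12251 genes. Leaving out the 4 highest cells of each library gave -2.33, and leaving out only the shared barcodes of WT IP gave -1.29. Leaving out cells with a UMI of a mesothelial marker, 4 in WT IP and 10 in KO IP, gave -1.60. Timp1 was lower in KO IP under each of these choices.

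The enzymes of IP differed less between genotypes. Mmp11 gave 763 UMIs in WT and 395 in KO, a log2 ratio of -0.49 (-0.67 to -0.31), and Mmp14 4003 and 2415 UMIs, at -0.27 (-0.34 to -0.20). Over 12 alternative settings Mmp11 ran from -0.77 to -0.059. Timp2 stood at -0.08 (-0.12 to -0.04). In the other direction, Timp3 gave 1168 and 1006 UMIs, at 0.24 (0.12 to 0.37), and Mmp2 4138 and 3298 UMIs, at 0.13 (0.06 to 0.20). Both signs turned under other settings, Timp3 to -0.12 with cells thinned to 2000 UMIs and to -0.022 without the shared barcodes of WT IP, and Mmp2 to -0.054 with cells thinned and to -0.091 with each cell weighted equally. Mmp3 (-0.08, -0.22 to 0.05), Mmp19 (-0.09, -0.28 to 0.09) and Mmp23 (-0.10, -0.21 to 0.02) did not differ beyond counting error.

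Counted together, 9 of the 10 genes could be compared in each depot. In SC, 2 of 9 (Timp1 and Mmp19) were at least 2-fold lower in KO, against 2.69% of 9797 genes, or 2.99% of 9773 genes without the shared barcodes. In IP, 1 of 9 (Timp1) was, against 2.20% of 12251 genes. The interval lay below 0 for 6 of 9 in SC, against 10.2% of genes, or 10.5% without the shared barcodes, and for 4 of 9 in IP, against 13.1%. The median log2 ratio of the 9 was -0.29 in SC, or -0.32 without the shared barcodes, and -0.09 in IP, and that of all genes compared lay near 0 in SC and at 0.06 in IP. Since the 10 genes were chosen with these ratios known, nothing is read from these shares.

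**Figure D3:**
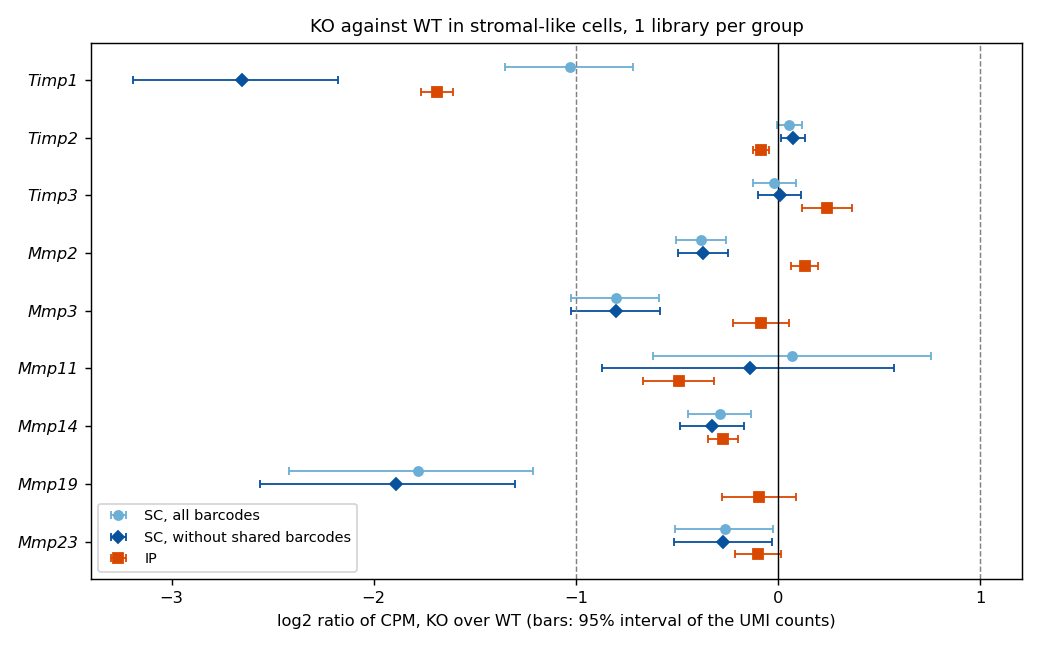
Log2 ratio of CPM, KO over WT, in stromal-like cells (horizontal axis) for the 9 genes compared (vertical axis), in SC with all barcodes, in SC without the shared barcodes and in IP; bars are 95% intervals of the UMI counts and dashed lines mark 2-fold. Timp1 lies left of -1 in all 3 series, from -1.03 to -2.65, and Mmp19 in both SC series.

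The KO against WT ratio differed between depots by more than counting error for Timp1, Timp2, Timp3, Mmp2, Mmp3 and Mmp19. For Mmp11, Mmp14 and Mmp23 it did not. The share of all genes that differ in this way was not computed, so nothing is read from this about the family. The difference (IP ratio minus SC ratio, in log2) was 1.69 (1.09 to 2.28) for Mmp19, 0.72 (0.47 to 0.97) for Mmp3, 0.51 (0.37 to 0.65) for Mmp2 and 0.26 (0.10 to 0.42) for Timp3, and without the shared barcodes it was 1.80, 0.72, 0.50 and 0.23. For Timp1 it was -0.66 (-0.98 to -0.34) with all barcodes and 0.96 (0.47 to 1.45) without the shared ones, so which depot had the larger Timp1 difference turned with the barcodes used. For Mmp14 it was 0.02 (-0.15 to 0.19), within counting error. These intervals hold no spread between mice, and no test of genotype across depots was run.

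Depots were set side by side within each genotype. In WT, Timp1 was higher in IP than in SC stromal-like cells by 2.99 (2.81 to 3.17) on the log2 scale, and Mmp11 by 2.56 (2.11 to 3.09), while Timp3 was lower, at -2.07 (-2.18 to -1.96). In KO, Timp1 stood at 2.32 (2.07 to 2.61) and Timp3 at -1.81 (-1.92 to -1.69), and Mmp11 gave 89.9 CPM in IP and 22.2 CPM in SC, with an interval of the log2 ratio from 1.54 to 2.54. Mmp19 was added in KO at 2.34 (1.83 to 2.94), against 0.65 (0.37 to 0.96) in WT. Without the shared barcodes the KO values were 3.95 for Timp1, 2.21 for Mmp11, -1.83 for Timp3 and 2.45 for Mmp19. In all, 3 of 9 genes in WT and 4 of 9 in KO differed at least 2-fold between depots, against 15.7% of 11665 genes in WT and 17.0% of 11340 genes in KO, or 17.6% of 11329 without the shared barcodes.

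The remaining genes differed less between depots. For Mmp14 the log2 ratio of IP over SC was 0.65 (WT) and 0.67 (KO), and for Mmp23 0.49 and 0.66. Timp2 was lower in IP in both genotypes, at -0.32 and -0.46. Mmp2 was level in WT, at -0.04 (-0.13 to 0.05), and higher in IP in KO, at 0.47, and Mmp3 was lower in IP in WT, at -0.65 (-0.80 to -0.49), and within counting error of 0 in KO, at 0.07 (-0.13 to 0.28). Leaving out the shared barcodes gave KO values of 0.70 for Mmp14, 0.66 for Mmp23, -0.48 for Timp2, 0.46 for Mmp2 and 0.07 for Mmp3. The sign of the difference between depots was thus the same in both genotypes for Timp1, Timp2, Timp3, Mmp11, Mmp14, Mmp19 and Mmp23.

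**Figure D4:**
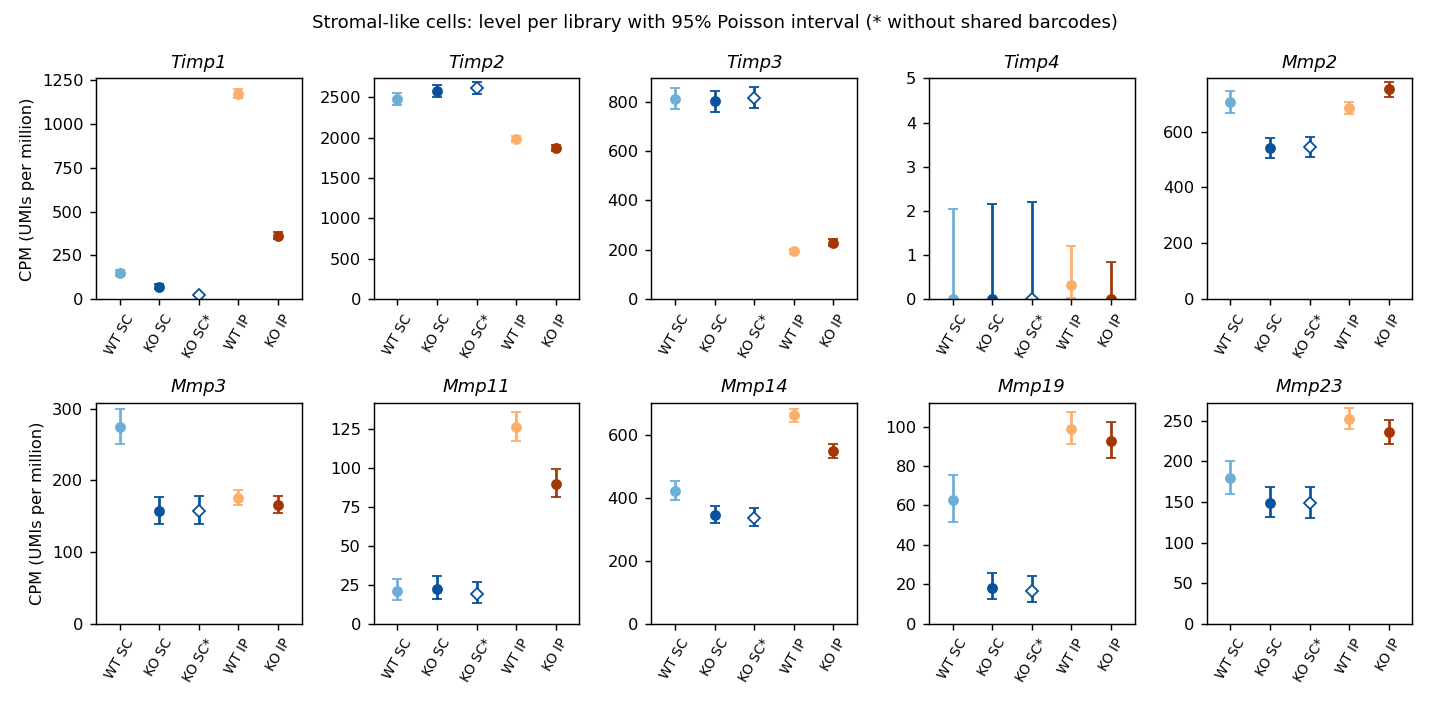
CPM in stromal-like cells (vertical axes, from 0, a separate scale for each gene) in each library (horizontal axes), with exact 95% Poisson intervals; the open diamond is KO SC without the shared barcodes. Timp1 and Mmp11 stand higher in both IP libraries, and Timp3 in both SC libraries.

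Stromal-like cells were then divided by 2 sets of progenitor markers, into cells with more distinct markers of the Dpp4 group (Dpp4, Pi16, Sema3c, Cd55 and Anxa3, known from early progenitors) and cells with more distinct markers of the Icam1 group (Icam1, Fabp4, Pparg, Lpl and Cd36, known from cells closer to adipocytes), cells with equal numbers being left out. The 2 groups are named by these markers and were not shown to be states of the cells. The Dpp4 group held 62.0% of stromal-like cells in WT SC, 58.2% in KO SC (77.0% without the shared barcodes), 36.7% in WT IP and 52.2% in KO IP. The Icam1 group held 30.0%, 29.9% (18.0%), 44.8% and 25.6%. Many cells were only 1 marker from a tie, so these groups are ranges. In the Icam1 group these were 47 of 121 cells in WT IP and 33 of 52 in KO IP, and 15 of 30 in WT SC and 28 of 55 in KO SC (5 of 22 without the shared barcodes). In the Dpp4 group they were 40 of 99 in WT IP and 42 of 106 in KO IP, and 6 of 62 in WT SC and 10 of 107 in KO SC (4 of 94).

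Timp1 was lower in KO within both groups of IP. In the Icam1 group it stood at 1278 CPM (WT) against 196 CPM (KO), a log2 ratio of -2.70 (-2.92 to -2.50), and in the Dpp4 group 994 and 382 CPM, at -1.38 (-1.49 to -1.27). The cell with 478 Timp1 UMIs lay in the Dpp4 group of KO IP, which had 933 Timp1 UMIs in all. The ratio of that group without this cell was not computed, so the contrast between the groups in IP may rest on it. In SC without the shared barcodes, Timp1 was at -3.46 (-4.44 to -2.70) in the Icam1 group, on 13 UMIs in KO and 193 in WT, and at -0.09 (-0.95 to 0.77) in the Dpp4 group, on 25 UMIs in each. With the shared barcodes these were -1.85 and 0.74 (0.01 to 1.51). The intervals of the 2 groups did not overlap when the shared barcodes were left out, and the difference between the groups was not tested. The Icam1 group held 30 cells in WT SC and 22 in KO SC, and 3 of the 4 WT SC cells with the most Timp1 were of it. These 3 cells had 85, 45 and 28 of the 193 Timp1 UMIs of that group in WT SC, so its level there rested largely on them. The ratio of this group without these cells was not computed.

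Other members differed between genotypes within these groups as well. Mmp19 was lower in KO SC in both, at -1.37 (-2.30 to -0.55) in the Dpp4 group and -2.08 (-3.21 to -1.20) in the Icam1 group without the shared barcodes, and -1.38 and -2.17 with all barcodes. Mmp3, which stood at 842 CPM in the Icam1 group of WT SC and 48.5 CPM in its Dpp4 group, was at -0.50 (-0.76 to -0.25) and -0.14 (-0.69 to 0.41) in KO without the shared barcodes, and -0.55 and -0.15 with them, smaller than the -0.80 over all stromal-like cells. In IP the 2 groups went opposite ways for Timp3, at 1.26 (1.02 to 1.49) in the Icam1 group and -0.34 (-0.51 to -0.18) in the Dpp4 group, and for Mmp14, at -0.41 (-0.55 to -0.28) and 0.16 (0.04 to 0.27). Mmp3 in IP was higher in KO in the Dpp4 group, at 0.84 (0.61 to 1.07), and level in the Icam1 group, at -0.09. Mmp11 in IP, at -0.49 over all stromal-like cells, was within counting error of 0 in both groups. It stood at -0.24 (-0.61 to 0.13) in the Dpp4 group and 0.12 (-0.14 to 0.38) in the Icam1 group. In WT IP its level was 58.0 CPM in the Dpp4 group and 158 CPM in the Icam1 group. Mmp2 was lower in the Icam1 group of KO SC, at -0.53 (-0.76 to -0.31), or -0.56 with all barcodes, and level in that of KO IP, at -0.02 (-0.14 to 0.11).

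**Figure D5:**
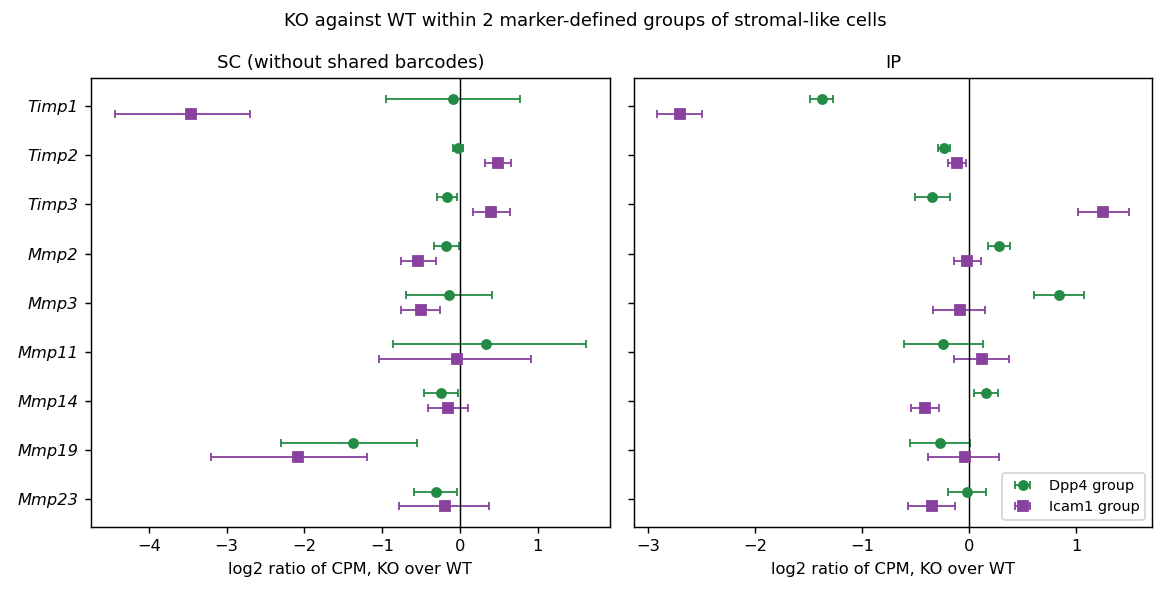
Log2 ratio of CPM, KO over WT (horizontal axes), for the 9 genes (vertical axis) in Dpp4-group and Icam1-group stromal-like cells of SC (left, without the shared barcodes) and of IP (right), with 95% intervals of the UMI counts. Timp1 in the Icam1 group lies at -3.46 in SC and -2.70 in IP, further left than in the Dpp4 group. Much of the Timp1 in the Icam1 group of WT SC and in the Dpp4 group of KO IP lies in few cells.

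Genes that act with this family were taken from lists, and the shares over all genes are given beside them. The interval lay above 0 for 10.0% of genes in SC, or 10.1% without the shared barcodes, and for 18.4% in IP. These shares also take in genes with few UMIs, whose intervals are wide. For listed genes with many UMIs the interval left out 0 at small ratios. Col1a2 in SC was at -0.22 (-0.26 to -0.18), on 7500 UMIs in KO and 9178 in WT. Counts over a list and shares over all genes are thus not comparable, and no excess of a list is read from them. Of 12 matrix proteins cut by these enzymes, 11 were lower in KO SC beyond counting error and 0 were higher, with a median log2 ratio of -0.45, or -0.47 without the shared barcodes. Col3a1 gave -0.62 (-0.66 to -0.59), Eln, the elastin gene, -0.78 (-0.96 to -0.61), and Lamc1 0.02 (-0.12 to 0.15), and without the shared barcodes they gave -0.67, -0.78 and 0.02, again with 11 of 12 lower. In IP, 5 were lower and 6 higher, with Eln at 1.22 (1.14 to 1.31) and Col4a2, a basement membrane collagen, at -0.60 (-0.66 to -0.54). The substrates thus shared a direction with Mmp2, Mmp3 and Mmp14 in SC and had no common one in IP.

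Partners of the family were mostly lower in KO. Cd63, the cell surface protein that Timp1 binds, stood at -0.57 (-0.68 to -0.46) in SC and -0.72 (-0.78 to -0.66) in IP, and Cd44, which anchors proteases at the surface, at -0.64 (-0.84 to -0.45) and -0.73 (-0.86 to -0.60). Reck, a membrane inhibitor of metalloproteinases, was at -0.19 (-0.49 to 0.10) and 0.25 (-0.02 to 0.53). The SC values without the shared barcodes were -0.63 for Cd63, -0.66 for Cd44 and -0.17 for Reck. Of the 6 partners compared, 5 were lower in SC and 4 in IP, and without the shared barcodes it was again 5 in SC.

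Of the plasminogen system, which cuts matrix and can activate metalloproteinase precursors, the urokinase receptor Plaur gave 265 UMIs in WT IP and 63 in KO IP, a log2 ratio of -1.61 (-2.03 to -1.21). The protease inhibitor Serpine2 was at -0.83 (-0.96 to -0.70) there, the urokinase gene Plau at 0.36 (0.21 to 0.52) and Plat, the gene of tissue plasminogen activator, at 0.09 (-0.02 to 0.20). In SC, Plaur stood at 0.29 (-0.16 to 0.74) and Serpine2 at 0.23 (0.00 to 0.46), or 0.29 and 0.24 without the shared barcodes. Plaur and Serpine2 were thus lower in KO beyond counting error in IP and not in SC, and the difference between depots was not tested for them.

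Of the ADAM and ADAMTS proteases, a related family that Timp3 also blocks, 15 of 16 could be compared. In SC 3 were lower and 1 higher in KO, with Adamts4 at -1.30 (-1.85 to -0.79), or -1.56 without the shared barcodes, and in IP 3 were lower and 5 higher, with Adamts4 at -0.55 (-0.70 to -0.39), Adamts1 at -0.51 and Adamts5 at 0.50. Of 17 other metalloproteinase genes, 16 were in the table and only 2 in SC and 4 in IP had the 20 UMIs needed. Mmp16 gave 1.74 (0.34 to 3.63) in SC on 17 and 5 UMIs, and Mmp27 -0.65 (-1.60 to 0.22) on 18 and 30, or 1.77 and -0.62 without the shared barcodes.

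The genes listed as immediate early, most of them induced within minutes by growth factors and also by tissue digestion, went mostly opposite ways in the depots. The list of 10 also held 2 heat shock genes, which are part of the counts and of the summed level below. These were Hspa1a, at 0.25 in SC and -1.83 in IP, and Hspa1b, at 0.69 in SC and -0.58 in IP. In SC 7 of 10 were higher in KO and 0 lower, with Egr1 at 0.66 (0.57 to 0.75) and Fos at 0.27 (0.20 to 0.34), and without the shared barcodes 7 were again higher, with Egr1 at 0.67 and Fos at 0.27. In IP 8 of 10 were lower and 2 higher, with Jun at -0.64 (-0.70 to -0.59), Fos at -0.38 and Egr1 at 0.51. Their summed level was 8210 CPM (WT) and 10045 CPM (KO) for SC, with 10073 CPM in KO SC without the shared barcodes, and 8731 CPM (WT) and 7228 CPM (KO) for IP. By the reported ratios Timp1 was lower in KO in both depots, though in SC not under every setting. The summed level of these genes was higher in KO in SC and lower in KO in IP. Their part in the values of Timp1 and the enzymes was not tested.

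Across the 18 sums of a class in a library with at least 20 cells, the genes whose log2(CPM + 1) followed Timp1 most closely among 7548 with at least 200 stromal UMIs were Zfp532 (Pearson r = 0.990), Fzd1 (0.982), C4b (0.982), Ak1 (0.979) and Pcdh7 (0.977). Without the shared barcodes, Zfp532, Ak1, C4b and Fzd1 were again among the first 5, at 0.968 to 0.979, with Tcea3 (0.965). These sums share libraries and mostly set stromal and mesothelial classes apart from leukocytes. Among the members, r with Timp1 was 0.925 for Mmp23, 0.921 for Mmp14, 0.892 for Mmp19 and 0.890 for Timp3. In stromal-like cells the genotypes were closer for Zfp532, the first of the 5, than for Timp1. It gave 10.6 CPM (WT) and 10.5 CPM (KO, 10.8 without the shared barcodes) for SC and 21.4 CPM (WT) and 21.2 CPM (KO) for IP.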

How the data were processed

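Cells of SC and IP AT were profiled with 10x Genomics Chromium 3' chemistry. The deposited values were raw UMI counts, 1 matrix per library. Per the file headers the authors had used Cell Ranger 7.0.0, and the submitters' processing notes also name STAR 2.6 and the mm10 build. The annotation, whether intronic reads were counted and how cells were called are not given in the sources used here. CPM levels of different genes were not ranked against each other, though shares of cells with a UMI were set side by side.

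A minimum of 200 genes and a limit of 25% mitochondrial UMIs left 971 (WT) and 1969 (KO) barcodes for SC and 675 (WT) and 521 (KO) for IP. Total UMIs per library ran from 10015201 to 15533961. Each cell was classed by its detected markers, as described with the results, and the rest (74 to 128 cells per library) were left unassigned. No doublet caller was run, and cells with markers of a second class above the limit were among those unassigned.

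UMIs were summed over the cells of a class in a library and scaled to counts per 1000000 UMIs (CPM) of that sum. Genes with at least 20 UMIs in 2 libraries together were compared as log2 ratios after adding 0.5 UMI. With 1 library per group no test was possible and cells were not used as replicates. Intervals at 95% are exact Poisson for CPM, exact Clopper-Pearson for shares of cells and exact conditional binomial for ratios, and cover counting error only. A count of 0 allows up to 3 UMIs. The ratio function was tested on simulated data. The genes named are the 10 members, the class markers, the genes of 6 lists and the 5 genes with the profile most like Timp1. The members and lists were chosen with earlier results of these data known. Mmp1a of the list of other metalloproteinases had no feature in the tables. The count over the plasminogen list is not reported here.

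Alternatives changed the filters, the scaling, the weight and depth of cells, the stromal markers and the minimum count. Those that leave out the shared barcodes, the cells with the most UMIs of a gene or the cells with a mesothelial marker were chosen after seeing the data. Promoters are RefSeq sequence on GRCm38.p6. Tools were scipy 1.17.1, pandas 2.3.3, numpy 2.4.6 and matplotlib 3.10.9 under Python 3.11.15.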

Additional observations from a re-analysis of the deposited data

Results flagged for a closer look

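The KO against WT log2 ratio had opposite signs in SC and IP for 4 genes with all barcodes. The IP ratio minus the SC ratio was 0.51 for Mmp2, 0.26 for Timp3, -0.14 for Timp2 and -0.56 for Mmp11, and these differences between depots were not tested, with 1 library per group. The intervals of both depots left out 0 for 1 of the 4, Mmp2. Without the shared barcodes the differences were 0.50, 0.23, -0.16 and -0.35, the signs were opposite for Mmp2 and Timp2 and the same for Timp3 and Mmp11, and both intervals left out 0 for Mmp2 and Timp2.

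Cells left unassigned held UMIs of the 10 genes that entered no comparison, 173 (WT) and 528 (KO) for SC and 1080 (WT) and 2583 (KO) for IP. In KO IP, 80 such cells held 1044 Timp1 UMIs (901 CPM) and 593 Timp3 UMIs but 15 of Mmp2. In WT IP, 118 such cells held 94 Timp1 UMIs (53.4 CPM), 136 of Timp3 and 135 of Mmp2. Timp1 was thus higher in KO in the unassigned cells of IP, the opposite of its direction in stromal-like cells. This was not tested. In KO SC, 13 Timp4 UMIs lay in unassigned cells. Barcodes left out by the filters held 12 UMIs (WT SC), 30 UMIs (WT IP) and 16 UMIs (KO IP) of the 10 genes.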

How the results depend on the processing

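No paired analysis was possible because each group had 1 library. Timp1 in SC (-1.03) turned to 1.86 with each cell weighted equally and to 0.22 without the 4 cells with the most Timp1, and was -1.60 with at least 500 genes per cell, -3.44 with cells thinned to 2000 UMIs and -0.56 as the mean over the Dpp4 and Icam1 groups. Thinned values of SC hold no shared stromal-like barcode of KO SC, since all of these lay below 2000 UMIs. Leaving the shared barcodes out of KO SC, or of KO SC and WT IP, gave -2.65. With them left out of KO SC, equal weights gave -2.98, the mean over the groups -1.77 and leaving out the 4 cells -1.89. Timp1 in IP (-1.69) stayed below -1 in all 12 alternatives run. It was -2.04 with equal weights, -2.32 with the second class limited to 0.2 of the first, -2.06 thinned, -2.04 over the groups, -1.29 without the shared barcodes in WT IP, -2.33 without the 4 cells and -1.60 without cells with a mesothelial marker.

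The count of genes at least 2-fold lower in KO SC (2) fell to 1 with equal weights, over the groups or without the 4 cells. In IP (1) it was 2 with no minimum count, which added Timp4 on 2 UMIs. The count differing between depots in WT (3) was 6 at 1.5-fold. Among the other members, 6 of 222 values turned the sign of a ratio whose reported interval left out 0: Mmp14 in SC to 0.12 with equal weights and 0.15 thinned, Mmp2 in IP to -0.091 and -0.054 under the same settings, and Timp3 in IP to -0.12 thinned and -0.022 without the shared barcodes in WT IP. Of the rest, 178 stayed within the counting interval of the reported value and 38 lay outside it. With equal weights Mmp11 in SC went from 0.07 to 1.93 (-0.37 with the shared barcodes also left out) and Mmp19 in SC from -1.78 to -0.95 (-2.25). Ratios whose reported interval held 0 also changed sign, ranging over -0.10 to 0.23 for Timp2 and -0.36 to 0.12 for Timp3 in SC, and over -0.47 to 0.37 for Mmp3, -0.37 to 0.050 for Mmp19 and -0.18 to 0.017 for Mmp23 in IP. The cause of these changes was not tested, and cells thinned or left out also mean fewer UMIs.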
